A study of Homo sapiens with 2 samples.

Results

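The 59 genes described here encode the machinery that copies DNA and the regulators that let a cell pass from G1 into S phase. They were chosen by name, as listed members of this machinery, out of 25240 genes in the deposited tables, with earlier results of these data known. All 59 were found, 4 of them under an older symbol (ORC1L, ORC2L, ORC6L and CDC45L), and 58 reached 1 FPKM in at least 1 library and are called measured below. CDK6 did not. FPKM is the number of fragments per kilobase of transcript, scaled to the library's fragment total, so levels of different genes can be set side by side.

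The 2 libraries came from T47D cells, a luminal line of human breast cancer with estrogen and progesterone receptors. The cells of the shRON library carried a hairpin against RON, the receptor tyrosine kinase encoded by MST1R, and those of the shNT library a non-targeting hairpin. Both cultures were selected with puromycin at 5 ug/mL, kept at 1 ug/mL, and grown in high-glucose DMEM with 10% serum. Each group has 1 library, so no difference has a replicate check or a test, and all of them describe these libraries. The labels give no number of hairpins, no clone, and no cell density or cell cycle distribution at harvest. The name of the control table calls its cells wild type, whereas the label gives the non-targeting hairpin, which was followed.

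DNA replication starts at origins that are licensed in G1, when the origin recognition complex, CDC6 and CDT1 load the ring-shaped MCM2 to MCM7 helicase onto DNA. At the G1/S transition, cyclin-dependent kinases phosphorylate the retinoblastoma protein and free the E2F transcription factors, which switch on many of the replication genes. In S phase the helicase is joined by CDC45 and the GINS complex, and the polymerases, the sliding clamp PCNA and its loader follow it.

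MST1R itself was at 9.10 FPKM in shRON and 12.1 FPKM in shNT, a ratio of 0.749 (log2 ratio -0.38). It was thus less than 1.5-fold lower. Depth was about 11300000 estimated fragments in shRON and 11700000 in shNT. All 8 luminal markers were expressed, the lowest of them, ESR1, at 23.7 FPKM in shRON and 36.7 FPKM in shNT. The luminal list summed to 6400 FPKM in shRON and 8670 FPKM in shNT. Its median log2 ratio was -0.47, close to that of the replication genes (-0.44). With the median of non-member genes within 5 Mb subtracted from each gene, these medians were -0.28 and -0.43. At least 1.5-fold lower were 3 of its 8 genes, PGR (-1.11), CDH1 (-0.70) and ESR1 (-0.61), against 8.85% of all measured genes. The keratin genes KRT8, KRT18 and KRT19 lay between -0.54 and -0.39, while FOXA1 was at 0.01 and GATA3 at 0.27. Among markers of other cell types, 0 of 6 immune and 0 of 4 endothelial markers reached 1 FPKM, with PTPRC and PECAM1 listed at 0 in both libraries. The immune list summed to 0.879 FPKM in shRON and 0.115 FPKM in shNT, and the endothelial list to 0.0141 FPKM in shRON and 0.0137 FPKM in shNT. Of 5 fibroblast markers 2 were measured, and the list summed to 5.86 FPKM in shRON and 4.14 FPKM in shNT, with COL3A1 at 1.53 FPKM in shRON and 0.0103 FPKM in shNT. Of 5 basal markers KRT17 and EGFR were measured, both at least 1.5-fold higher, and the list summed to 8.99 FPKM in shRON and 1.85 FPKM in shNT. The part of these markers in the ratios below was not tested.

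The listed replication and G1/S genes were mostly lower in the shRON library. The lowest medians were those of the members listed under origin licensing, nucleotide synthesis and the helicase. Of 58 measured members, 50 (86.2%) had a log2 ratio of shRON over shNT below 0, against 46.1% of the 12480 measured genes. By a size rule of 1.5-fold, 16 members (27.6%) were lower and 0 were higher. Among all measured genes 8.85% were lower and 9.94% higher by that rule. At 2-fold, 4 members were lower, CDC6, ORC6, GINS2 and MCM2, against 2.17% of all measured genes, and 0 were higher, against 3.31%. The log2 ratio is taken on FPKM + 1, which makes the ratios of weakly expressed genes look smaller. The members' median log2 ratio was -0.44 with quartiles at -0.64 and -0.16, whereas the median of all measured genes was 0.04 with quartiles at -0.25 and 0.29. Summed over the measured members, FPKM came to 804 in shRON and 1120 in shNT, or 0.21% of the shRON total and 0.28% of the shNT total. In RNA from whole cultures, a smaller share of cells in S phase and less of these RNAs per cell cannot be told apart.

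Promoters are shown for the lowest members of the licensing, helicase and E2F groups, because E2F binding sites are a known feature of many replication genes. They are RefSeq promoters from 250 bases before to 50 after the start, read 5′ to 3′ on the gene's strand in build GRCh38.p14, at chr17:40287629-40287928 (plus strand) for CDC6, chr16:85688905-85689204 (minus strand) for GINS2 and chr20:33686336-33686635 (minus strand) for E2F1. Capitals mark the E2F letters TTTCCCGC, TTTCGCGC, TTTGCCGC or TTTGGCGC and the NF-Y letters CCAAT, each on either strand.
CDC6: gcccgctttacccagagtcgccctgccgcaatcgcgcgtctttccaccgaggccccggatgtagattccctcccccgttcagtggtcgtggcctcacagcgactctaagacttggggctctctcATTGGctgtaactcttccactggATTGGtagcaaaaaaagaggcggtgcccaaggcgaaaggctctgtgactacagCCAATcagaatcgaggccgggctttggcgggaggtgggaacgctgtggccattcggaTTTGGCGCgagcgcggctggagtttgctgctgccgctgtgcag
GINS2: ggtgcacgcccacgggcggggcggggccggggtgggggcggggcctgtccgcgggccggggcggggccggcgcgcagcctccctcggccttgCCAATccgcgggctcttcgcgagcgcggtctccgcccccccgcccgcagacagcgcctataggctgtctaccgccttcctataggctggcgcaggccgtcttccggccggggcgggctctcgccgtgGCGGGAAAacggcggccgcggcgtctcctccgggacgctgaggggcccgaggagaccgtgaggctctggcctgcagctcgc
E2F1: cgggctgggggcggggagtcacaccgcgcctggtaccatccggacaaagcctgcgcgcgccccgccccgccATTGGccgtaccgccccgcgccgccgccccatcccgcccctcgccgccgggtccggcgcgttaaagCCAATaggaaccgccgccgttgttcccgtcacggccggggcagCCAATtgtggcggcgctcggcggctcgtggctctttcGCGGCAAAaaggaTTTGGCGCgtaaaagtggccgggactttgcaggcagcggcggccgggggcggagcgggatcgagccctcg

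CDC6 held 1 E2F match and 3 CCAAT matches, GINS2 held 1 of each, and E2F1 held 2 E2F and 3 CCAAT matches, with 0 overlapping matches in each. Promoters were found for 51 of the 59 members, 66 in all since some genes have several, and 26 of these 66 (39.4%) held E2F letters. The share among all 35116 promoters of the same length was 3.31%, and among the 11993 promoters of measured genes outside the set 4.83%. CCAAT stood in 35 of the 66 (53.0%), against 34.6% of all promoters and 35.1% of those of measured genes outside the set. Within the set, medians with and without the E2F letters were close. The 25 measured members with them in any promoter had a median log2 ratio of -0.46, and the 25 without them one of -0.43. A match is a stretch of letters, not a measured binding site. Only the exact letters named above were sought, so promoters without them may still hold other E2F sites.

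**Figure D1:**
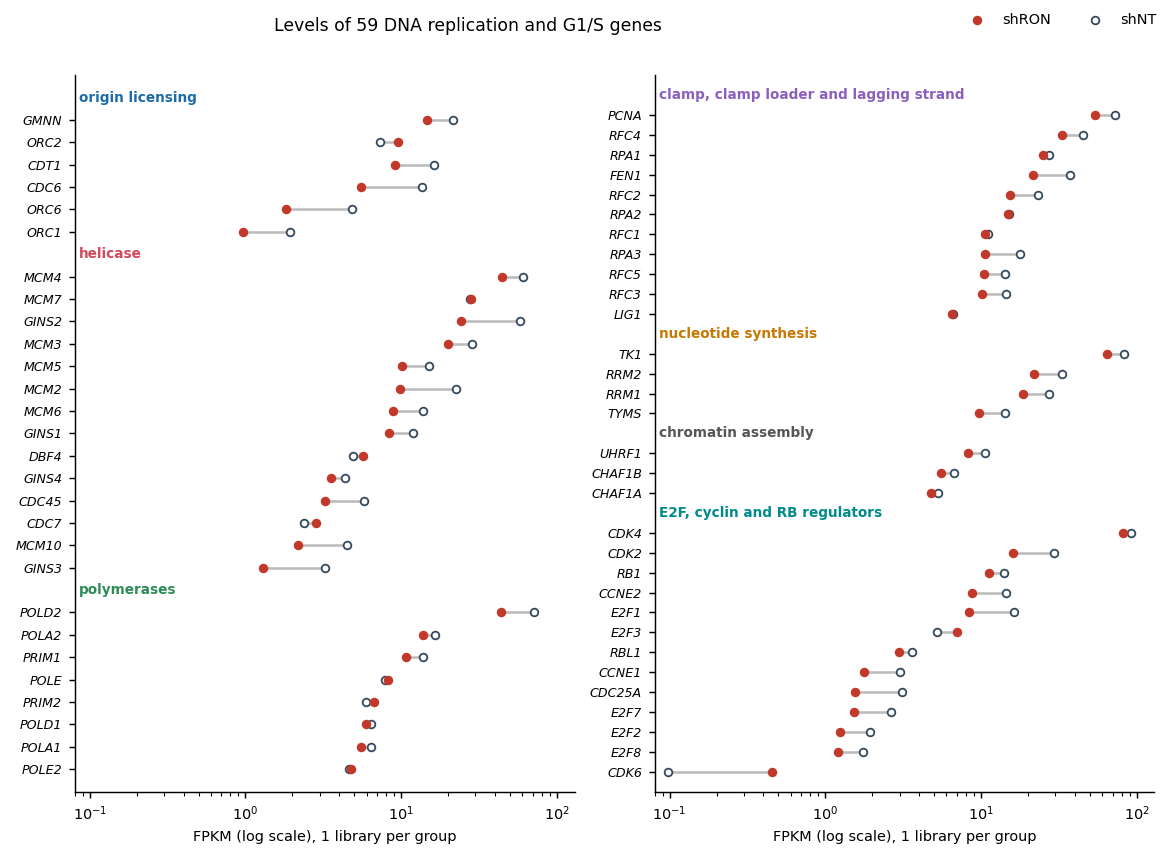
FPKM (log axis) of the 59 members by role, with filled points for shRON and open points for shNT, 1 library each. The shRON point lies left of the shNT point for 50 of the 58 measured members, and CDK6 lies under 0.5 FPKM in both libraries.

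Origin licensing genes had the lowest median of the 7 role groups before regional correction. With regional medians subtracted, nucleotide synthesis was at -0.66 and origin licensing at -0.65. Of 6 members, 5 were below 0, 3 of them by at least 1.5-fold, and the median log2 ratio was -0.67. CDC6, the ATPase that brings the helicase to the origin, stood at 5.53 FPKM in shRON and 13.7 FPKM in shNT. Its log2 ratio was -1.17, and its ratio of FPKM of 0.403 had an approximate 95% counting interval of 0.347 to 0.468, from an estimated 248 and 632 fragments. Such intervals reflect counting error alone and say nothing of the spread between cultures. CDC6 lies on the plus strand of chromosome 17 in hg19, from 38444146 to 38459413.

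ORC6, the smallest subunit of the origin recognition complex, was at 1.81 FPKM in shRON and 4.80 FPKM in shNT (log2 ratio -1.05). Its neighbourhood on chromosome 16 was low as well: the measured non-member genes within 5 Mb, 19 here, had a median of -0.65, and ORC6 relative to that regional median was at -0.39. CDT1, which loads the helicase together with CDC6, was at 9.15 FPKM in shRON and 16.3 FPKM in shNT (-0.77), also on chromosome 16, with a regional median of -0.21.

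GMNN, which encodes geminin, the inhibitor of CDT1, was at 14.6 FPKM in shRON and 21.6 FPKM in shNT (-0.53). It did not reach the size rule. ORC1, the subunit that marks origins in G1, was at 0.964 and 1.93 FPKM in shRON and shNT, and its log2 ratio of -0.579 missed the bound of -0.585 narrowly. ORC2 alone of the group was higher in shRON, at 9.61 FPKM in shRON and 7.35 FPKM in shNT (0.35). Its ratio of FPKM was 1.31, with a counting interval of 1.13 to 1.51. The further ORC genes, ORC3, ORC4 and ORC5, were listed apart with other replication genes. Their log2 ratios were -0.01, 0.18 and 0.18, so the group median covers only some of the ORC genes.

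Among the helicase genes, 11 of 14 were below 0 and 6 were at least 1.5-fold lower, with a median of -0.51. The subunits of the MCM2 to MCM7 ring were not lower to the same extent. MCM2 was at 9.90 FPKM in shRON and 22.4 FPKM in shNT, a ratio of 0.442 (counting interval 0.396 to 0.492, log2 ratio -1.10). It lies on chromosome 3 in a region with a median of -0.32, and relative to it MCM2 was at -0.78. MCM6, the other ring subunit past the size rule, was at 8.85 FPKM in shRON and 13.8 FPKM in shNT (-0.59). It stood only just inside the rule, with a log2 ratio of -0.589.

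MCM5 was at 10.2 FPKM in shRON and 15.2 FPKM in shNT, MCM3 at 19.9 FPKM in shRON and 28.7 FPKM in shNT, and MCM4, the most abundant subunit, at 44.5 FPKM in shRON and 60.5 FPKM in shNT. Their log2 ratios lay between -0.53 and -0.43. MCM7 was level, at 28.3 FPKM in shRON and 27.7 FPKM in shNT (0.03), with a counting interval of 0.942 to 1.11 around a ratio of 1.02. MCM7 overlaps the measured gene AP4M1, and reads in the overlap could have been counted for either. MCM7 ranked 7th of the 59 members by level in shRON and 12th in shNT.

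The GINS complex, which joins the ring at the start of S phase, had 4 of 4 genes below 0. GINS2 had the lowest log2 ratio of all members, at 24.1 FPKM in shRON and 58.1 FPKM in shNT (-1.24). The ratio of FPKM was 0.415, with a counting interval of 0.369 to 0.466, from an estimated 412 and 1018 fragments. GINS2 lies on the minus strand of chromosome 16 in hg19, from 85711280 to 85722588, where the regional median was -0.20. GINS3 was at 1.30 FPKM in shRON and 3.22 FPKM in shNT (-0.88), but its region on the same chromosome had a median of -0.78, and GINS3 relative to it was at -0.10.

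GINS1 was at 8.42 FPKM in shRON and 12.0 FPKM in shNT (-0.46), and GINS4 at 3.52 FPKM in shRON and 4.38 FPKM in shNT (-0.25). Summed over the complex, FPKM was 37.3 in shRON and 77.6 in shNT, a ratio of 0.481, most of which rests on GINS2. The sum over MCM2 to MCM7 was 122 FPKM in shRON and 168 FPKM in shNT, a ratio of 0.724.

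CDC45, the remaining part of the active helicase, was at 3.22 FPKM in shRON and 5.78 FPKM in shNT (-0.68). MCM10, which is needed to set the helicase in motion, was at 2.19 FPKM in shRON and 4.52 FPKM in shNT (-0.79). The kinase that triggers this step was close to level in its gene sums. CDC7, its catalytic subunit, was at 2.86 FPKM in shRON and 2.39 FPKM in shNT (0.18), and DBF4, its activating subunit, at 5.71 FPKM in shRON and 4.93 FPKM in shNT (0.18). Both counting intervals held 1. The direction of CDC7 depends on the processing: its log2 ratio was -0.72 when only its most abundant transcript was counted, and -0.07 relative to the regional median of 0.25.

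**Figure D2:**
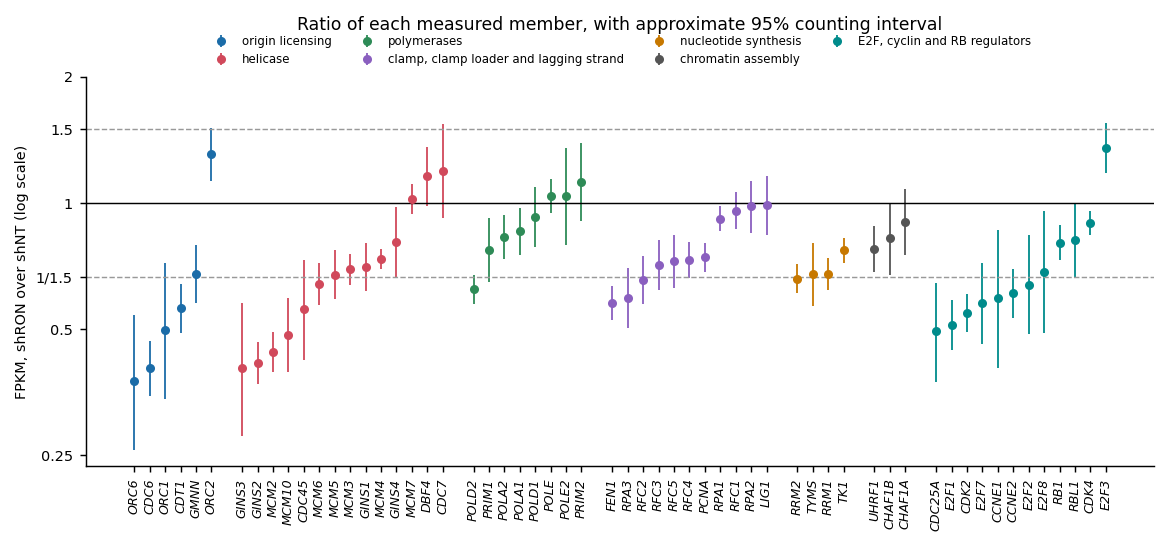
Ratio of FPKM, shRON over shNT (log axis), for the 58 measured members by role, with approximate 95% counting intervals as bars and dashed lines at 1.5-fold. The intervals of 43 members lie below 1, those of ORC2 and E2F3 above 1, and 13 hold 1, among them POLE, POLE2, PRIM2 and POLD1. The same counts over all measured genes were not computed, so these have no background to be set against. Calls in the text use FPKM + 1, so some genes past the dashed line are not counted as 1.5-fold lower.

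The replicative polymerase genes were closer to level. Of 8 members, 5 were below 0 and 3 above, the median log2 ratio was -0.14, and POLD2 alone was at least 1.5-fold lower. With regional medians subtracted, all 8 were below 0 and their median was -0.22, against -0.43 for all members. POLD2, an accessory subunit of polymerase delta, was at 44.1 FPKM in shRON and 70.9 FPKM in shNT (-0.67). The ratio was 0.622 with a counting interval of 0.574 to 0.674, and the regional median was -0.19. POLD1, the catalytic subunit of the same polymerase, was at 5.91 FPKM in shRON and 6.39 FPKM in shNT (-0.10), so these subunits differed both in level and in ratio.

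Polymerase alpha and primase, which lay down primers, were below 0 in 3 of 4 genes. POLA2 was at 13.8 FPKM in shRON and 16.6 FPKM in shNT, POLA1, the catalytic subunit, at 5.50 FPKM in shRON and 6.42 FPKM in shNT, and PRIM1, the catalytic primase subunit, at 10.7 FPKM in shRON and 13.8 FPKM in shNT. PRIM2, the large primase subunit, was the highest of the group, at 6.66 FPKM in shRON and 5.93 FPKM in shNT (0.14, or -0.02 with the regional median subtracted), with an interval of 0.908 to 1.39 that held 1. Polymerase epsilon was level, with POLE at 8.25 FPKM in shRON and 7.93 FPKM in shNT and POLE2 at 4.77 FPKM in shRON and 4.61 FPKM in shNT. Relative to their regional medians, POLE was at -0.20 and POLE2 at -0.16.

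All 11 genes of the clamp, its loader and lagging-strand processing were below 0, 2 of them by at least 1.5-fold, with a median of -0.43. FEN1, the nuclease that trims Okazaki fragments, was lowest, at 21.5 FPKM in shRON and 37.2 FPKM in shNT (-0.77, ratio 0.577, counting interval 0.525 to 0.634). LIG1, the ligase that seals the same fragments, was highest, at 6.49 FPKM in shRON and 6.57 FPKM in shNT (-0.02, or 0.05 from coverage). The enzymes of consecutive steps therefore stood at opposite ends of the group.

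PCNA, the sliding clamp, was at 54.0 FPKM in shRON and 72.7 FPKM in shNT (-0.42), and overlaps a measured antisense gene. Of the 5 clamp loader genes, RFC2 was at 15.4 FPKM in shRON and 23.4 FPKM in shNT (-0.58), just outside the rule. RFC3, RFC4 and RFC5 had log2 ratios of -0.46, -0.44 and -0.43, whereas RFC1, the large subunit, was at 10.6 FPKM in shRON and 11.1 FPKM in shNT (-0.06). The small subunits thus had lower ratios than the large one by these point values.

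RPA coats single-stranded DNA as a trimer, and its genes differed among themselves. RPA3, the smallest subunit, was at 10.6 FPKM in shRON and 17.9 FPKM in shNT (-0.70), and overlaps another measured gene. RPA1, the large subunit, was at 25.2 FPKM in shRON and 27.5 FPKM in shNT (-0.12, interval 0.857 to 0.982). RPA2 was at 14.9 FPKM in shRON and 15.2 FPKM in shNT (-0.02), a difference within counting error.

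The members listed under deoxynucleotide synthesis had 4 of 4 log2 ratios below 0, 0 past the size rule and a median of -0.53. Among genes of nucleotide supply listed apart, DUT was at -1.18, DCK at 0.06 and RRM2B at 0.51 (regional median 0.41). RRM2, the regulated subunit of ribonucleotide reductase, was at 22.0 FPKM in shRON and 33.3 FPKM in shNT (-0.58), just outside the rule, and its main transcript carried the deposited status LOWDATA in both libraries. RRM1, the large subunit of that enzyme, was at 18.6 FPKM in shRON and 27.5 FPKM in shNT (-0.54). TYMS, which makes thymidylate, was at 9.67 FPKM in shRON and 14.3 FPKM in shNT (-0.52) and overlaps 3 measured genes. TK1, which salvages thymidine, was at 64.4 FPKM in shRON and 83.4 FPKM in shNT (-0.37), and its regional median was -0.22.

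The 3 chromatin genes were below 0, by less than 1.5-fold. UHRF1, which brings the maintenance DNA methyltransferase to replicated DNA, was at 8.23 FPKM in shRON and 10.6 FPKM in shNT (-0.33). The histone chaperone subunits CHAF1B and CHAF1A were at 5.50 and 4.78 FPKM in shRON and at 6.69 and 5.32 FPKM in shNT, with log2 ratios of -0.24 and -0.13 and counting intervals that reached 1.

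Among the E2F, cyclin and RB regulators, 11 of 12 measured members were below 0 and 4 were at least 1.5-fold lower, with a median of -0.46. E2F1, an activating E2F and itself an E2F target, was lowest, at 8.33 FPKM in shRON and 16.3 FPKM in shNT (-0.89). The ratio was 0.511 with a counting interval of 0.445 to 0.586. It lies on the minus strand of chromosome 20 in hg19, and its regional median was 0.14. E2F1 ranked 33rd of the 59 members by level in shRON and 20th in shNT.

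E2F3, also an activating E2F, went the other way and had the highest ratio of all measured members, at 7.06 FPKM in shRON and 5.23 FPKM in shNT (0.37, ratio 1.35, interval 1.18 to 1.55). E2F2 was at 1.25 FPKM in shRON and 1.95 FPKM in shNT (-0.39). The repressive E2F genes were low: E2F7 was at 1.53 FPKM in shRON and 2.64 FPKM in shNT (-0.53), and E2F8 at 1.20 FPKM in shRON and 1.75 FPKM in shNT (-0.32). Activating and repressive members both lay below 0, apart from E2F3.

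CDK2, the kinase of cyclin E, was at 16.0 FPKM in shRON and 29.3 FPKM in shNT (-0.83, ratio 0.547, interval 0.491 to 0.608), in a region with a median of -0.25. CDC25A, the phosphatase that activates it, was at 1.54 FPKM in shRON and 3.11 FPKM in shNT (-0.70). Of the cyclin E genes, CCNE2 was at 8.76 FPKM in shRON and 14.4 FPKM in shNT (-0.66), and overlaps INTS8, while CCNE1 was at 1.78 FPKM in shRON and 3.01 FPKM in shNT (-0.53). Kinase, activator and both cyclins of this module lay below 0 together.

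The kinase of the D cyclins and the pocket proteins differed less. CDK4 was the most abundant member in each library, at 82.1 FPKM in shRON and 91.5 FPKM in shNT (-0.16), and its region had a median of -0.25. RB1 was at 11.3 FPKM in shRON and 14.1 FPKM in shNT (-0.29), and RBL1, which encodes p107, at 2.96 FPKM in shRON and 3.63 FPKM in shNT (-0.22). CDK6 was at 0.454 FPKM in shRON and 0.0975 FPKM in shNT, under the filter of 1 FPKM in both, and was not counted. Its ratio of FPKM was 4.66 (counting interval 2.73 to 8.38), from an estimated 76 and 17 fragments. On FPKM + 1 its log2 ratio was 0.41, short of the size rule.

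**Figure D3:**
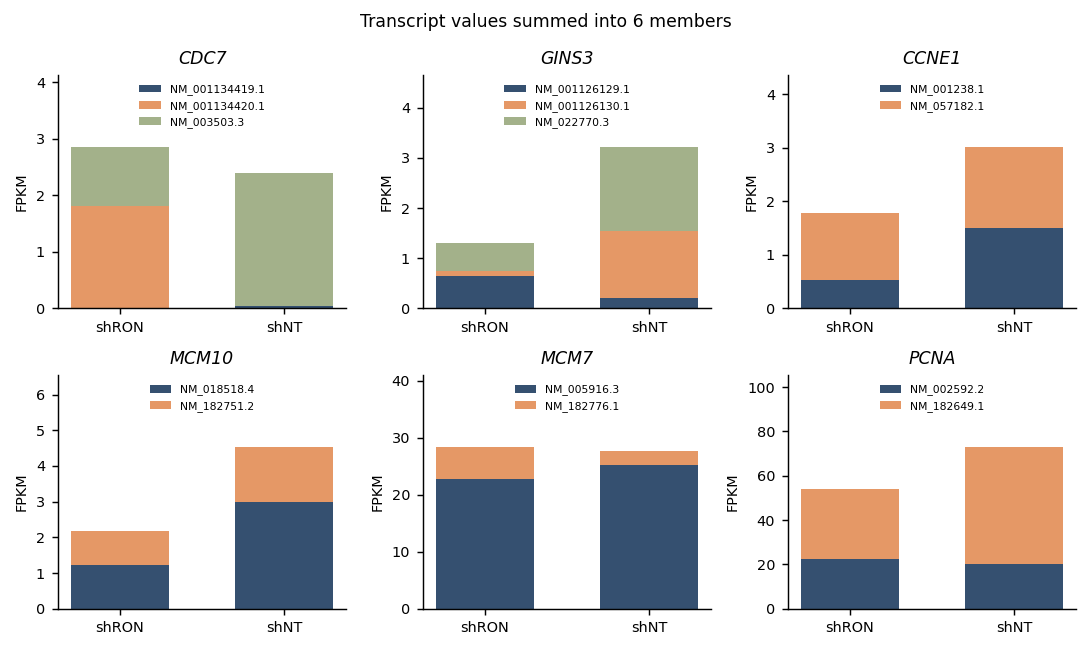
FPKM of the RefSeq transcripts that add up to 6 members, as stacked bars with shRON left of shNT, 1 library each. The leading transcript of CDC7, GINS3 and CCNE1 differs between the libraries, with those of CCNE1 nearly tied in shNT, whereas MCM10, MCM7 and PCNA keep theirs.

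For 21 members the gene value is the sum of several transcripts, and for 4 of them the leading transcript differed between the libraries: CCNE1, CDC7, CDK6 and GINS3. In CDC7 the transcripts went opposite ways. Transcript NM_001134420.1, which starts further downstream, was at 1.81 FPKM in shRON and close to 0 in shNT, while NM_003503.3 was at 1.04 FPKM in shRON and 2.35 FPKM in shNT. These estimates rest on about 135 fragments of CDC7 in shRON and 115 in shNT, and how reads were divided between similar transcripts is uncertain.

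In GINS3, NM_001126130.1 was at 0.102 FPKM in shRON and 1.32 FPKM in shNT, and NM_001126129.1 at 0.652 FPKM in shRON and 0.214 FPKM in shNT. PCNA had more fragments to divide, and its transcripts also differed. NM_182649.1 was at 31.6 FPKM in shRON and 52.6 FPKM in shNT, whereas NM_002592.2 was at 22.4 FPKM in shRON and 20.2 FPKM in shNT. In MCM7, the minor transcript NM_182776.1 made up 19.4% of the gene in shRON and 9.14% in shNT.

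**Figure D4:**
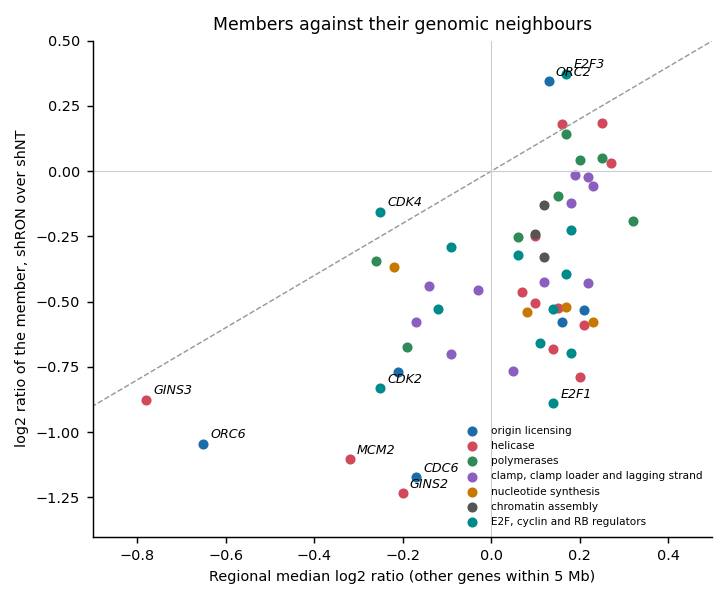
Log2 ratio of each member, shRON over shNT, against the median log2 ratio of the non-member genes within 5 Mb, with the dashed line where both are equal. Of the 57 members with a regional median, 53 lie below the line, and GINS3 and ORC6 lie furthest left, in regions that were low as a whole.

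Some members lay in regions that were low as a whole. The members lie on 20 chromosomes, and 8 members had a regional median below -0.2, a share not computed for all genes. The median of the regional medians was 0.12 for the members and 0.11 for all measured genes. After each member's regional median was subtracted, 53 of 57 were below 0. Of the 12480 measured genes, not all of which have a regional median, 6230 were below 0 in the same way. At least 1.5-fold lower were 21 members, against 6.51% of all measured genes treated in the same way. The median of the members was then -0.43. MCM4 had too few measured neighbours for a regional value.

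**Figure D5:**
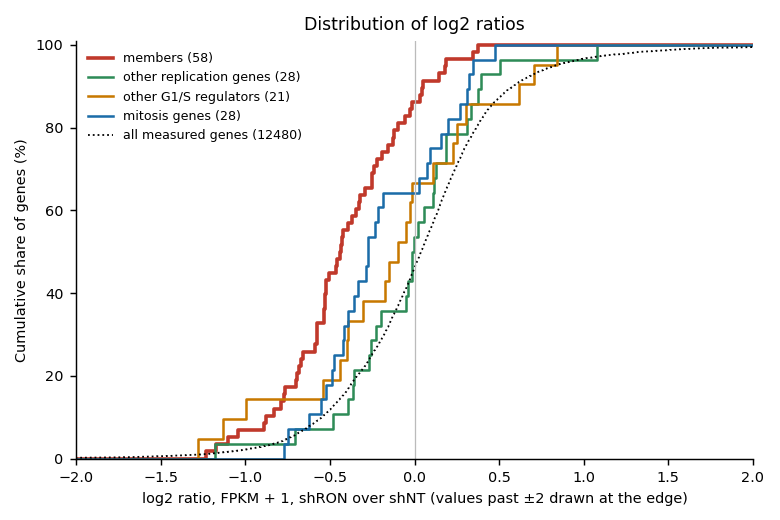
Cumulative share of genes (%) by log2 ratio of FPKM + 1, shRON over shNT, for the 58 measured members, the 3 related lists and all 12480 measured genes. The curve of the members lies left of the others over most of its range, with a median of -0.44, against 0.04 for all measured genes.

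Related genes outside the set were less uniformly placed by count, although the difference between lists could not be tested. Members and lists were chosen with earlier results of these data known, so the contrast is not independent of that choice. Further replication genes include the origin recognition genes ORC3, ORC4 and ORC5, fork-protection factors, minor polymerase subunits and enzymes of nucleotide supply. Of 28 measured, 2 (7.14%) were lower and 1 (3.57%) higher by 1.5-fold, and the median was -0.01. Among all measured genes 8.85% were lower and 9.94% higher. The lower ones were DUT, which keeps uracil out of DNA, at 17.7 FPKM in shRON and 41.4 FPKM in shNT (-1.18), and TOPBP1, which helps activate the helicase, at 8.01 FPKM in shRON and 13.7 FPKM in shNT (-0.71). The higher one was SAMHD1, an enzyme that breaks down deoxynucleotides, at 73.5 FPKM in shRON and 34.3 FPKM in shNT (1.08). The regional median was -0.28 for DUT and -0.31 for TOPBP1.

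Of 21 further G1/S regulators, 3 (14.3%) were lower and 3 (14.3%) higher, against 8.85% and 9.94% of all measured genes. Their median was -0.10. DTL, part of the ligase that destroys CDT1 in S phase, was at 3.87 FPKM in shRON and 10.9 FPKM in shNT (-1.28, regional median -0.40), CCND1, cyclin D1, at 19.0 FPKM in shRON and 38.9 FPKM in shNT (-1.0), and the CDK inhibitor gene CDKN1A at 14.8 FPKM in shRON and 33.5 FPKM in shNT (-1.13). The inhibitor genes CDKN2D (7.58 FPKM in shRON and 4.26 FPKM in shNT) and CDKN1C (1.30 FPKM in shRON and 0.284 FPKM in shNT) and the phosphatase gene CDC25B (31.1 FPKM in shRON and 20.0 FPKM in shNT) were higher. Cyclin D1 and inhibitors of its kinases thus appeared on both sides of the rule.

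Of 28 mitosis genes, 18 (64.3%) were below 0, against 46.1% of all measured genes. By 1.5-fold, 3 (10.7%) were lower, PRC1, KIF11 and NUSAP1, near the 8.85% of all measured genes, and 0 were higher, against 9.94%. Their median was -0.28, and -0.10 after regional medians were subtracted. The same medians of the replication members were -0.44 and -0.43.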

How the data were processed

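The authors deposited 1 transcript table per library with FPKM and coverage for 37839 RefSeq transcripts, laid out as Cufflinks writes them, per the file headers, and on hg19 per the submitters' processing notes, which also name DESeq with no role. Neither the aligner nor the Cufflinks version nor any scaling between libraries is given in the sources used here. Total RNA was extracted with TRIZOL and made into TruSeq libraries, per the labels' protocols.

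Transcripts were joined by identifier, since their order differs between the tables, and FPKM was summed per gene. Genes with a FAIL status (6 transcripts in shNT) and small RNA genes were left out, and genes with 1 FPKM or more in either library were kept. Fragments were estimated from the deposited coverage signal times length, divided by 245 bases per read pair in shRON and 247 in shNT. These were the medians of products between 150 and 325 bases among transcripts of at least 1500 bases, bounds that partly fix them. Counting intervals are 95% Clopper-Pearson intervals on these estimates. Strand came from GENCODE lifted to GRCh37 and starts were converted to 1-based. Python 3.11.15, pandas 2.3.3 and scipy 1.17.1 were used, and the ratio script was tested on simulated data. Members were chosen by name. Those at least 1.5-fold higher or lower, and the lowest and highest of each role group, get full values. Members and lists were chosen with earlier results of these data known. A gene of the related lists is not reported here.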

Additional observations from a re-analysis of the deposited data

How the results depend on the processing

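No paired analysis was possible because there is 1 library per group. A median was taken as moved past 0.1 on the log2 scale and a count past 1.5-fold. The count of 16 lower members was 8 with a pseudocount of 5 FPKM (3.73% of all genes were then lower), 22 with 0.1 (11.8%), 11 of the 44 members at a mean of 5 FPKM or more (8.47%), and 14 to 21 under the other 8 alternatives (4.81% to 10.3%), and 0 were higher by 1.5-fold under all 11. One of the 11, leaving out members that overlap another measured gene, was chosen after seeing the data and gave 14 lower. With the pseudocount of 5 the medians were -0.32 for all members, -0.48 for origin licensing, -0.40 for the helicase and -0.23 for E2F, cyclin and RB regulators, all nearer 0 because that scale shrinks low values. With a pseudocount of 0.1 they were -0.88 for origin licensing and -0.66 for the E2F group. The E2F group then lay below nucleotide synthesis (-0.56) and the helicase (-0.54), so the order of the groups changed. The nucleotide synthesis median was -0.66 with regional medians subtracted, and origin licensing at -0.65 was then no longer lowest. No median changed sign. Of 267 values of 25 named members under the alternatives, 241 stayed within their counting interval or within 0.1 and 26 moved. No member that passed the size rule in the main setting changed sign. Only 6 of the 16 lower members, CDC6, CDK2, E2F1, FEN1, GINS2 and MCM2, stayed past 1.5-fold under all 10 alternatives planned, and the other 10 lost it under at least 1. Among the named members near 0, CDC7, PRIM2 and LIG1 changed sign. CDC7 was -0.72 by its most abundant transcript and -0.07 relative to its region. PRIM2 was -0.02 relative to its region, and LIG1 0.03 with totals equalised and 0.05 from coverage. Outside these 25, MCM7 (-0.24), POLE (-0.20) and POLE2 (-0.16) fell below 0 relative to their regions, and CDK4 (0.10) rose above it. Without replicates, culture-to-culture spread is unknown, and low members such as ORC1 rest on few fragments.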

Other observations

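E2F letters outside the set went with little difference. Of 8201 measured genes that were not members and had a promoter in the table, 541 held the letters in any promoter, with a median log2 ratio of shRON over shNT of 0.01, and the 7660 without them had a median of 0.05. Members at least 1.5-fold lower held them in 8 of 13 genes with a promoter, and other measured members in 17 of 37. Over the 58 measured members, levels in both libraries kept their order, with a Spearman rho of FPKM of 0.961. Over all 12480 measured genes it was 0.95. These are descriptions across genes, which are not independent replicates. RFC1 moved up most in that order, ranking 21st in shRON and 33rd in shNT, and E2F1 moved down most.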
